A study of Mus musculus with 10 samples.

Results

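Apolipoprotein D (Apod) and 5 other carriers of lipids were followed in knee cartilage of mice that lack the microRNA gene Mir324. The 6 genes, Apod, Apoe, Apoc1, Clu, Ptgds and Rbp4, were taken by symbol from a table of 35705 genes, after the TPM values of all transcripts of a gene had been added up. TPM, the unit of the table, corrects a transcript's signal for its length and expresses it as a part of the library, whose sum is the same in every mouse. Apod was selected on its higher level in null mice in an earlier look at these same libraries, so its difference between genotypes is given as a description with no test. The other 5 were added for the kind of protein they encode, with earlier results of these data known. The questions were whether they share the difference of Apod, and which genes vary with Apod from mouse to mouse.

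The study compared 5 wild-type control mice with 5 Mir324-null mice. The cap of cartilage on the medial side of the knee was dissected from each mouse and sequenced as 1 library. The labels call the cells chondrocytes and report no treatment. They do not give the age, sex, litter or sequencing batch of the mice, nor how the null allele was made. The genotype labels were not checked against the targeted gene, since Mir324 was not analysed here.

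Lipocalins are small secreted proteins folded into a barrel that holds a hydrophobic molecule. Apod is a lipocalin that binds arachidonic acid and progesterone, Rbp4 carries retinol, and Ptgds both carries lipids and makes prostaglandin D. Apoe and Apoc1 ride on lipoprotein particles, Apoe as a ligand of their cell-surface receptors and Apoc1 as an inhibitor of lipoprotein uptake and of lipid transfer. Clu (clusterin, also called apolipoprotein J) is an extracellular chaperone found on lipoproteins and made by chondrocytes. Apod is known in many tissues from fibroblasts and from cells under oxidative stress.

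The libraries were mixed tissue. Between 13386 and 14299 genes per library reached 1 TPM, and read depth is unknown. Haemoglobin genes took 11.2% to 19.7% of the TPM in wild-type libraries and 15.8% to 26.1% in null libraries. Of 9 chondrocyte markers, 6 averaged at least 1 TPM, and Col9a1, Matn1 and Matn3 did not. The summed chondrocyte markers ranged from 365 to 1070 TPM in wild-type and from 293 to 599 TPM in null libraries. Markers of marrow and bone summed to far more. The 7 neutrophil markers ranged from 55632 to 109003 TPM in wild-type and from 54585 to 111430 TPM in null libraries. The 10 osteoblast and osteocyte markers ranged from 5407 to 12907 TPM in wild-type and from 3081 to 6146 TPM in null libraries. Wild-type replicate 1 stood apart, with the highest Acan (287 TPM, against 60.2 to 146 in the other 9 mice), Prg4 (5075 TPM, against 1335 to 3821) and Clu. Results that rest on this mouse are given with and without it. In such bulk samples, fewer cells of a type and less RNA per cell cannot be told apart.

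The microRNA strands that the null mice lack are shown because the 6 genes were searched for matches to their seeds. Both lie on the plus strand of chromosome 11, miR-324-5p at chr11:70012060-70012082 and miR-324-3p at chr11:70012095-70012114 (RefSeq, GRCm38.p6). Capitals mark the seed, bases 2 to 8 counted from the 5′ end.
miR-324-5p: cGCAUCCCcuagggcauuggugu
miR-324-3p: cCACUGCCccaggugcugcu
A perfect match to these seeds in a transcript reads GGGATGC or GGCAGTG. None of the 6 genes holds either match in its longest annotated 3′ UTR, which is 1149 bases long in Apod, 271 in Apoe, 113 in Apoc1, 364 in Clu, 162 in Ptgds and 243 in Rbp4. Among 12640 tested genes with a 3′ UTR, 9.38% held GGGATGC and 17.3% held GGCAGTG. Apod had neither match anywhere in its 6 annotated transcripts. Matches in expressed transcripts fell at a single place, in Apoe. The stretch printed below spans chr7:19696820-19696849 on the minus strand, in the coding sequence of exon 3 of the 3 exons of Apoe-205. The match is in 8 of the 11 Apoe transcripts, among them Apoe-202 and Apoe-211, which are noncoding. Capitals mark the match.
Apoe coding match: agcgcttgatgcGGGATGCcgaggatctgc
A GGCAGTG match in the 5′ UTR of Clu-204 lay in a transcript listed at 0 TPM in all 10 libraries. Only perfect matches to bases 2 to 8 were searched, and shorter or imperfect ones were not. These matches describe letters in annotated transcripts and say nothing about binding. Whether any of the 6 genes is a direct target was not tested.

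Apod (ENSMUSG00000022548, chromosome 16, 31296192 to 31314808, minus strand, GRCm38) measured 4.20, 4.73, 4.59, 5.67 and 4.24 TPM in wild-type mice 1 to 5. In null mice 1 to 5 it measured 10.7, 13.7, 14.7, 8.14 and 8.40 TPM. All 5 null mice lay above all 5 wild-type mice, and null mice 4 and 5 lay nearest to them. The means were 4.68 ± 0.593 and 11.1 ± 2.99 TPM (SD, n = 5 each), a ratio of 2.38 and a difference of 1.06 in log2(TPM + 1). Among the 13841 genes that reached a mean of 1 TPM, which are the genes tested below, 0.881% had all null mice above all wild-type mice and 1.06% all below. Apod was chosen by this contrast, so nothing is read from that share. By its mean, Apod stood above 35.9% of the genes tested.

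**Figure D1:**
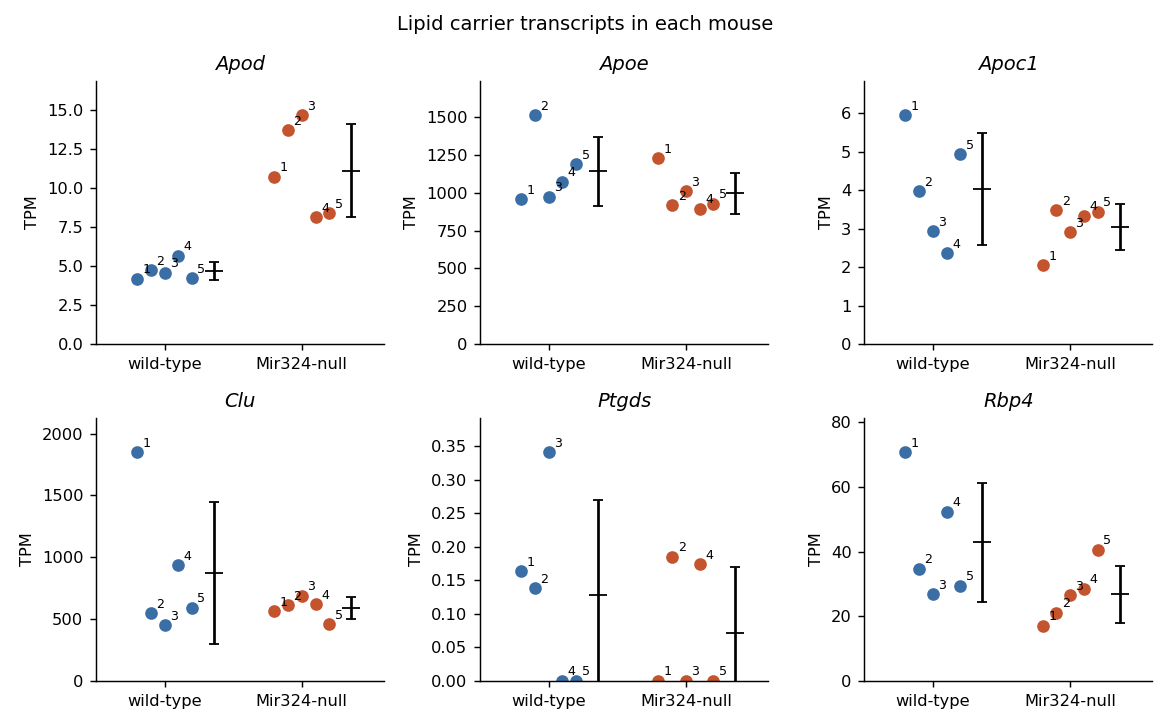
TPM of the 6 lipid carriers in each of 10 mice (points, numbered by replicate), with mean and SD of the 5 mice of each genotype beside them (SD bars that reach below 0 are cut at 0). Apod, chosen for its higher level in null mice, is the only panel in which the genotypes do not overlap. Its null mice are at 8.14 TPM or more and its wild-type mice at 5.67 TPM or less.

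The higher Apod values were spread over its main transcripts. Of 6 annotated transcripts, 4 had a value above 0 in some library. Apod-202, which is protein coding, averaged 2.50 ± 1.1 TPM in wild-type mice and 5.61 ± 1.92 TPM in null mice. Apod-201, annotated as carrying a retained intron and so with no coding sequence, averaged 1.79 ± 1.12 and 4.96 ± 1.49 TPM. The coding Apod-203 averaged 0.395 ± 0.387 and 0.428 ± 0.256 TPM (SD, n = 5 each). Apod-202 made up 53.5% of the wild-type and 50.4% of the null total, and Apod-201 38.1% and 44.5%. In wild-type replicate 1, Apod-202 reached 4.00 TPM and Apod-201 only 0.201 TPM, while wild-type replicate 3 had 1.13 and 3.13 TPM. Taken alone, each of these transcripts overlapped between genotypes. The lowest null values were 3.68 TPM for Apod-202 and 3.04 TPM for Apod-201. Transcripts of the same gene share sequence, so that how reads are divided among them is less certain than their sum.

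**Figure D2:**
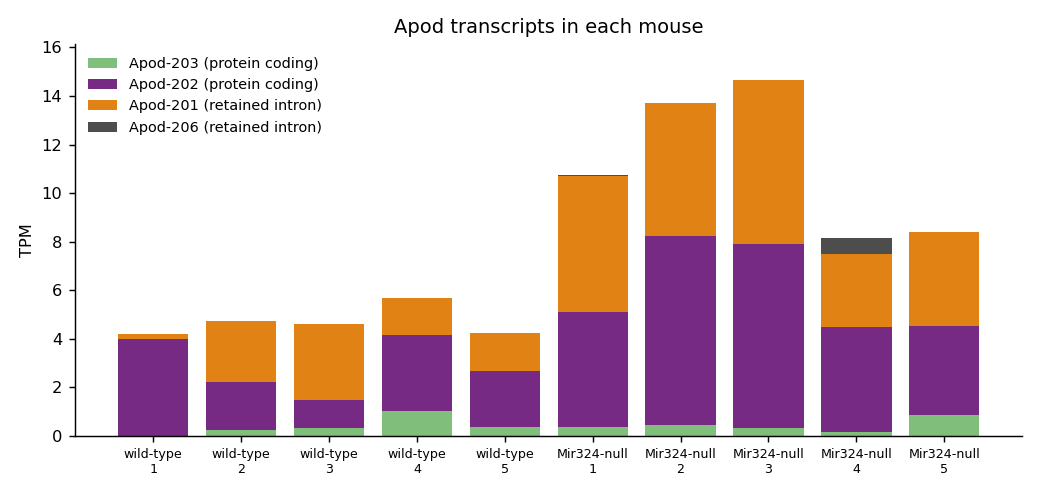
TPM of the 4 Apod transcripts with a value above 0 (colours), stacked for each of 10 mice (1 bar per mouse). Apod-202 and Apod-201 make up most of every bar, and every null bar is taller than every wild-type bar.

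Apoe, the receptor ligand, was not higher in null mice on average. It was the most abundant of the 6 (ENSMUSG00000002985, chromosome 7, 19696109 to 19699188, minus strand). Its values were 959, 1510, 973, 1071 and 1186 TPM in wild-type mice 1 to 5 and 1227, 916, 1010, 893 and 928 TPM in null mice 1 to 5. The genotypes overlapped, and only null replicate 1 exceeded the wild-type mean. The means were 1140 ± 226 and 995 ± 137 TPM (SD, n = 5 each), a log2 change of -0.19 (SE 0.135, limma, Benjamini-Hochberg adjusted p = 0.659). Apoe-205 carried 67.7% of the wild-type and 72.6% of the null total. The next transcripts, Apoe-209 and Apoe-203, were divided differently in wild-type replicate 1, with 443 TPM and 0, than in the other mice.

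Apoc1 lies beside Apoe on the same strand (ENSMUSG00000040564, chromosome 7, 19689481 to 19692660) at a far lower level. It measured 5.94, 3.97, 2.94, 2.36 and 4.93 TPM in wild-type mice 1 to 5 and 2.05, 3.47, 2.90, 3.34 and 3.44 TPM in null mice 1 to 5. No null mouse exceeded the wild-type mean, but the genotypes overlapped. The means were 4.03 ± 1.451 and 3.04 ± 0.597 TPM, a log2 change of -0.28 (SE 0.206, limma, adjusted p = 0.667). The change was -0.15 without wild-type replicate 1 (SE 0.193, limma, adjusted p = 0.914). The value of Apoc1 came from Apoc1-201 and Apoc1-202 in proportions that varied from mouse to mouse, with 1 or the other listed at 0 in some libraries.

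Clu, the chaperone, was nearly as abundant as Apoe (ENSMUSG00000022037, chromosome 14, 65968483 to 65981547, plus strand). It measured 1851, 547, 450, 936 and 593 TPM in wild-type mice 1 to 5 and 564, 612, 690, 621 and 457 TPM in null mice 1 to 5. The null mice lay close together inside the range of the wild-type mice, in which replicates 1 and 4 were the highest. The means were 875 ± 576 and 589 ± 86.3 TPM, a log2 change of -0.38 (SE 0.319, limma, adjusted p = 0.717). Without wild-type replicate 1 the change was -0.059 (SE 0.192, limma, adjusted p = 0.979). Clu-201 carried 99.2% of the gene's TPM in the wild-type group and 99.1% in the null group.

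Rbp4, the retinol carrier, leaned the opposite way to Apod (ENSMUSG00000024990, chromosome 19, 38116629 to 38125281, minus strand). Its values were 70.8, 34.8, 26.8, 52.4 and 29.5 TPM in wild-type mice 1 to 5 and 17.1, 21.2, 26.5, 28.5 and 40.6 TPM in null mice 1 to 5. The genotypes overlapped, with null replicate 5 above 3 of the wild-type mice. The means were 42.9 ± 18.5 and 26.8 ± 8.91 TPM, a log2 change of -0.62 (SE 0.280). The unadjusted limma p was 0.0478 and the adjusted p 0.427, so the difference did not pass the test. Of all genes tested, 4.28% were higher and 7.3% lower in null mice at an unadjusted p under 0.05, and 0 (0%) passed adjustment. Without wild-type replicate 1 the change was -0.42 (SE 0.248, limma, adjusted p = 0.704). Rbp4-202 carried 89.3% of the wild-type and 83.6% of the null total.

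Ptgds, the prostaglandin D synthase, was near 0. It averaged 0.1002 TPM over the 10 mice (ENSMUSG00000015090, chromosome 2, 25466709 to 25470046, minus strand) and was listed at 0 in 5 of them. The highest value was 0.341 TPM, in wild-type replicate 3. The noncoding transcript Ptgds-204 made up 78.5% of the wild-type and 100% of the null total. The coding transcript Ptgds-203 was above 0 in wild-type replicate 2 alone, at 0.138 TPM. It did not pass the filter of a mean of 1 TPM and was not tested. So 5 of the 6 genes passed that filter, and 0 of the 4 tested passed adjustment.

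The order of the carriers was nearly fixed from mouse to mouse. Apoe exceeded Clu in 9 of 10 mice, the exception being wild-type replicate 1, and in wild-type mice the ranges of these neighbours overlapped. Clu exceeded Rbp4 in 10 of 10 mice and Rbp4 exceeded Apod in 10 of 10. The mean of Rbp4 was 9.15 times that of Apod in wild-type mice and 2.41 times in null mice. Apod exceeded Apoc1 in 3 of 5 wild-type mice, where the ranges overlapped, and in 5 of 5 null mice, where the ratio of means was 3.66. Apoc1 exceeded Ptgds in all 10.

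Within a genotype, Apod varied little with the other carriers. After the mean of each genotype was subtracted, Pearson's r of log2(TPM + 1) over the 10 mice was 0.14 between Apod and Apoe, -0.36 between Apod and Apoc1, 0.13 between Apod and Clu and -0.25 between Apod and Rbp4. Without wild-type replicate 1, that between Apod and Clu was 0.53. The pair with the highest value was Clu and Rbp4 at 0.66, and it was 0.32 without wild-type replicate 1. Apoe and Apoc1, though neighbours, stood at -0.24, and at -0.014 without wild-type replicate 1. These coefficients describe 10 mice whose libraries share a fixed TPM total.

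Other genes of lipid transport were counted in lists of related proteins. Of 20 apolipoproteins, 7 passed the filter. Apart from Apod, 1 of the other 6 (Apol8) had an unadjusted limma p under 0.05 in the higher direction, beside 4.28% of all genes. None of the 6 did in the lower direction, beside 7.3%, and 0 passed adjustment. Their median log2 change was -0.23, beside -0.045 over all genes tested. Apol8, an intracellular apolipoprotein of the L family, measured 21.3, 19.4, 29.5, 26.9 and 23.9 TPM in wild-type mice 1 to 5 and 36.1, 32.4, 33.2, 38.3 and 39.1 TPM in null mice 1 to 5. Its genotypes did not overlap, at means of 24.2 ± 4.08 and 35.8 ± 2.97 TPM (log2 change 0.56, SE 0.119, limma, adjusted p = 0.277). Apol genes of the mouse form a family of similar copies, so its value is less certain than that of a gene without copies. Apoc2, the cofactor of lipoprotein lipase, averaged 6.32 ± 3.99 and 8.67 ± 2.43 TPM (log2 change 0.58, limma, adjusted p = 0.625). The plasma apolipoproteins Apoa1, Apob and Apoc3, made by liver and gut, averaged 0.054, 0.014 and 0.027 TPM.

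Among the lipocalins, 5 of 14 passed the filter. Apart from Apod, 0 of 4 had an unadjusted p under 0.05 in the higher direction, beside 4.28% of all genes. Of the 4, 1 had such a p in the lower direction, beside 7.3% (Rbp4, as given above). Their median change was -0.093, and for the whole list it was -0.071, turning to 0.11 after quantile normalization and 0.02 without haemoglobin genes. Lcn2, an iron-scavenging lipocalin of neutrophils, was the most abundant with 3048 ± 1009 TPM in the wild-type group and 2954 ± 1204 TPM in the null group (log2 change -0.071, limma, adjusted p = 0.960). Orm1, an acute-phase lipocalin, averaged 31.6 ± 9.09 and 30.2 ± 13.4 TPM (limma, adjusted p = 0.932).

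Receptors and lipases that handle lipoproteins had their lowest p-values in genes with lower means in null mice. Of 22, 19 passed the filter, and 4 had an unadjusted p under 0.05, all in the lower direction, beside 7.3% of all genes. None did in the higher direction, beside 4.28%. The median change was -0.074. The count of lower genes was 4 under each other scaling as well, while that of higher genes was 1 after median ratio scaling, 2 after quantile normalization and 3 without haemoglobin genes. Lipc, hepatic lipase, measured 25.3, 10.5, 19.7, 24.0 and 15.3 TPM in wild-type mice 1 to 5 and 8.30, 9.74, 8.48, 8.76 and 7.55 TPM in null mice 1 to 5. The genotypes did not overlap, and the null mice were much closer to each other than the wild-type mice. The log2 change was -1.003 (SE 0.203, limma, adjusted p = 0.277). Of 6 liver markers, 3 (Alb, Ttr and Fgb) were listed at 0 in all 10 libraries, while Serpina1a and Ahsg passed the filter. The summed liver markers ranged from 2.52 to 9.90 TPM in the wild-type and from 2.07 to 8.28 TPM in the null group, and their part in the value of Lipc was not tested.

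The other 3 were Vldlr, Angptl4 and Gpihbp1. Vldlr, a receptor for Apoe-bearing particles, averaged 7.48 ± 2.10 and 4.01 ± 0.846 TPM (log2 change -0.74, limma, adjusted p = 0.283). Angptl4, an inhibitor of lipoprotein lipase, averaged 17.5 ± 3.87 and 10.6 ± 2.61 TPM (log2 change -0.68, limma, adjusted p = 0.291). Gpihbp1, which anchors that lipase on capillaries, averaged 17.8 ± 3.26 and 12.9 ± 2.67 TPM (log2 change -0.44, limma, adjusted p = 0.338). Lrp1, another receptor of Apoe, averaged 107 ± 32.2 and 92.4 ± 21.9 TPM (log2 change -0.20, limma, adjusted p = 0.781). Bsg, a receptor reported for Apod, averaged 425 ± 25.6 and 465 ± 25.9 TPM (log2 change 0.13, limma, adjusted p = 0.530).

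The liver X receptors switch on Apoe and Apoc1 when sterols rise in a cell. All 12 of their listed targets passed the filter, and the median change was -0.15. In the higher direction 1 gene had an unadjusted p under 0.05, beside 4.28% of all genes, and in the lower none, beside 7.3%. That gene was Lpcat3, which loads polyunsaturated fatty acids onto phospholipids. It measured 40.2, 43.1, 46.7, 42.8 and 41.4 TPM in wild-type mice 1 to 5 and 56.1, 58.2, 53.9, 49.3 and 52.2 TPM in null mice 1 to 5. The genotypes did not overlap (log2 change 0.32, SE 0.0794, limma, adjusted p = 0.277). The sterol exporters Abca1 and Abcg1 had changes of -0.084 and -0.16 (limma, adjusted p = 0.872 and 0.838).

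Proteins that hold lipids inside cells had lower means in null mice for 8 of 9 tested genes. Of 14, 9 passed the filter, 7 had an unadjusted p under 0.05 in the lower direction, beside 7.3% of all genes, and 0 in the higher. The median change was -0.35. Fabp4, the fatty acid carrier of fat cells and capillaries, measured 184, 192, 246, 209 and 150 TPM in wild-type mice 1 to 5 and 103, 92.7, 155, 129 and 139 TPM in null mice 1 to 5. Only null replicate 3 reached into the wild-type range (log2 change -0.67, SE 0.161, limma, adjusted p = 0.277). Fabp7, Rbp7 and Fabp3 were low genes, with wild-type means of 3.58, 2.32 and 3.60 TPM and null means of 1.34, 1.0998 and 1.598 TPM. Their changes were -0.99, -0.66 and -0.80 (limma, adjusted p = 0.283, 0.319 and 0.358), and the genotypes of Rbp7 did not overlap.

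Markers of fat cells stood lower beside them. Of 6 such markers, 5 passed the filter and all 5 had an unadjusted p under 0.05 in the lower direction, beside 7.3% of all genes, with a median change of -0.78. When single mice were left out, between 3 and 5 of the 5 did, with 3 without wild-type replicate 1, 3 or 4 or null replicate 2 or 5. Markers of bone cells were lower as well, 9 of 10 for osteoblasts and osteocytes (median change -0.90) and 6 of 6 for osteoclasts (-0.97). These counts were 5 and 4 at the lowest when single mice were left out, wild-type replicate 1 among them. Erythroid markers went the other way, with 4 of 7 at such a p in the higher direction, beside 4.28% of all genes (median change 0.44). Without wild-type replicate 1 this was 2 of 7. The summed fat cell markers ranged from 139 to 238 TPM in wild-type and from 92.1 to 208 TPM in null mice, and their part in the values of Fabp4 and the other carriers was not tested. Leaving out single mice for these lists was an alternative chosen after the data had been seen. It left between 3 and 6 of the 9 intracellular carriers with such a p, with 3 when wild-type replicate 1 was dropped and 4 when wild-type replicate 4 or null replicate 4 or 5 was. Under other scalings of the libraries the count was 7 after median ratio scaling, 6 after quantile normalization and 4 when haemoglobin genes were left out.

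Genes of prostaglandin synthesis and of retinoid handling bear on the cargo of Ptgds and Rbp4. For prostaglandins, 14 of 18 passed the filter, with a median change of -0.041, which was 0.04 without haemoglobin genes. At an unadjusted p under 0.05, 1 was higher and 2 lower, beside 4.28% and 7.3% of all genes. Ptgis, prostacyclin synthase, averaged 54.1 ± 19.97 and 34.7 ± 9.33 TPM (log2 change -0.60, limma, adjusted p = 0.365). Akr1b3 had a change of -0.32 and Tbxas1, thromboxane synthase, of 0.30 (limma, adjusted p = 0.406 and 0.427). With wild-type replicate 1 or null replicate 5 left out, 0 of the 14 had an unadjusted p under 0.05, and 1 with wild-type replicate 4 or null replicate 1 left out. Hpgds, the prostaglandin D synthase of blood cells, averaged 11.99 ± 2.11 and 9.77 ± 2.33 TPM, far above Ptgds.

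For retinoids, 10 of 17 passed the filter, with a median change of -0.086, which was 0.05 without wild-type replicate 1. At an unadjusted p under 0.05, 1 was higher and 2 lower, beside 4.28% and 7.3% of all genes. Rbp4 was among the lower genes. Aldh1a1, which makes retinoic acid, averaged 39.5 ± 8.79 and 52.3 ± 8.91 TPM (log2 change 0.41, limma, adjusted p = 0.374). Ttr, the plasma partner of Rbp4, was listed at 0 throughout, and its receptor Stra6 averaged 0.148 TPM. When single mice were left out, between 0 (null replicate 4) and 4 (wild-type replicate 3) of the 10 had such a p, and without wild-type replicate 1, 2 or 4 or null replicate 2 it was 1.

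**Figure D3:**
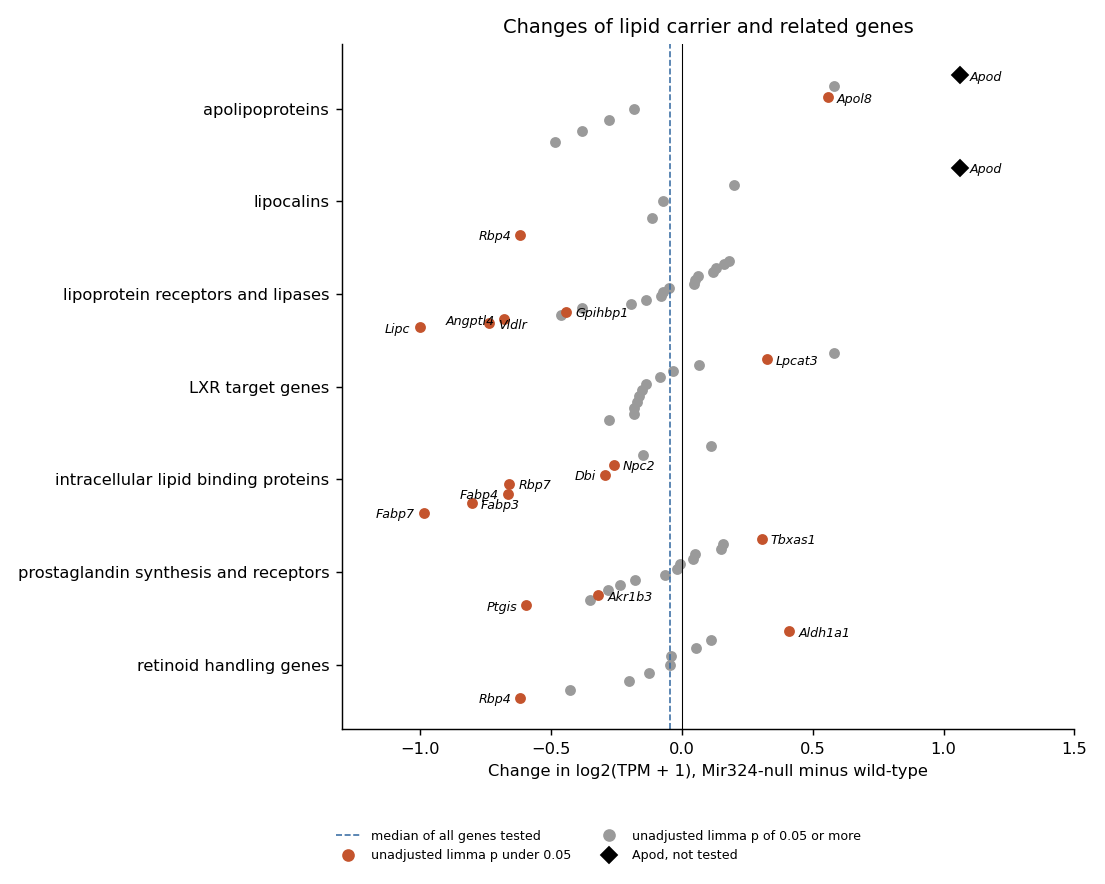
Change in log2(TPM + 1), Mir324-null minus wild-type, of the genes of the 7 lists that averaged at least 1 TPM, apart from those not reported here (points; a gene in more than 1 list is drawn in each). The dashed line is the median of all genes tested, at -0.045. Apod, chosen for this difference and not tested, lies to the right of all other points. The intracellular carriers lie mostly to the left.

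None of the tested genes around Apod had a higher mean in null mice. Of 16 annotated genes within 250 kb, 8 were in the table and 4 passed the filter, and all 4 had a change below 0. The median over all genes tested was also below 0, at -0.045, so nothing is read from that count. The 4 were Ppp1r2 at -0.029, Acap2 at -0.21, Xxylt1 at -0.34 and Bdh1, an enzyme of ketone bodies, at -0.61. Bdh1 averaged 6.19 and 3.82 TPM (limma, adjusted p = 0.338). No annotated gene overlapped any of the 6 carriers on either strand. In the cluster that holds Apoe and Apoc1, Tomm40 averaged 34.3 and 33.2 TPM and Clptm1 59.3 and 61.5 TPM, and Apoc4 stayed under 1 TPM. Nectin2 averaged 5.37 and 3.95 TPM (log2 change -0.36, limma, adjusted p = 0.425), and Gm44805 2.98 and 2.24 TPM (-0.61, adjusted p = 0.726).

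The genes whose pattern was most like that of Apod were ranked by r over 10 mice after the genotype means had been subtracted, so that the difference between genotypes has no part in the ranking. Of the 13840 other genes, 132 had an r of at least 0.8 and 15 an r of -0.8 or lower, and the median r was 0.27. The 10 highest were Gm3200, Zfp637, Enah, Mboat1, Lyve1, Spsb4, Mdfic, Mpzl3, Rrp7a and Snd1. Their r lay between 0.95 for Gm3200 and 0.88 for Snd1. Among so many genes over 10 mice, high values of r are to be found for many genes, and these are given as a description.

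Gm3200 measured 4.77, 5.83, 5.66, 6.46 and 5.32 TPM in wild-type mice 1 to 5 and 6.72, 7.12, 9.24, 3.30 and 3.93 TPM in null mice 1 to 5. Like Apod, it was highest in wild-type replicate 4 and null replicate 3 and lowest in wild-type replicate 1 and null replicate 4, but its genotypes had about the same mean, 5.61 and 6.06 TPM. Lyve1, a hyaluronan receptor of lymphatic vessels and of some macrophages, measured 1.35, 1.18, 0.989, 1.78 and 1.46 TPM in the wild-type group. The null mice had 1.93, 3.64, 3.66, 1.64 and 1.22 TPM, with replicates 2 and 3 the highest and replicates 4 and 5 within the wild-type range. Its r with Apod was 0.96 in the null mice and 0.50 in the wild-type mice. Enah, an actin regulator, had r = 0.91, with 0.99 in the null and 0.66 in the wild-type mice. Unlike Apod, Enah had a lower mean in the null group (10.3 TPM) than in the wild-type group (14.9 TPM), and its genotypes overlapped. For Rrp7a and Snd1 the relation came from the null mice, at 0.98 and 0.96, while in the wild-type mice r was -0.25 and 0.11. Of the 10 genes, Lyve1, Mpzl3 and Gm3200 had a log2 change between genotypes above 0 (0.48, 0.062 and 0.028). It was below 0 for Enah (-0.53), Mdfic (-0.37), Snd1 (-0.14), Rrp7a (-0.13), Spsb4 (-0.11), Mboat1 (-0.10) and Zfp637 (-0.089).

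The list was not stable. When each mouse was left out in turn, Gm3200 stayed among the 10 highest in 9 of 10 cases, Zfp637 in 6 and Enah in 5, and the other 7 genes in 3 cases or fewer. Without wild-type replicate 1, none of the 10 stayed. The lowest values of r were -0.91 for Igkv5-39, an immunoglobulin segment, -0.91 for the pseudogene Apol10c-ps, -0.90 for Gm5175 and -0.86 for Recql, a DNA helicase, and Atl1, a shaper of the endoplasmic reticulum.

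**Figure D4:**
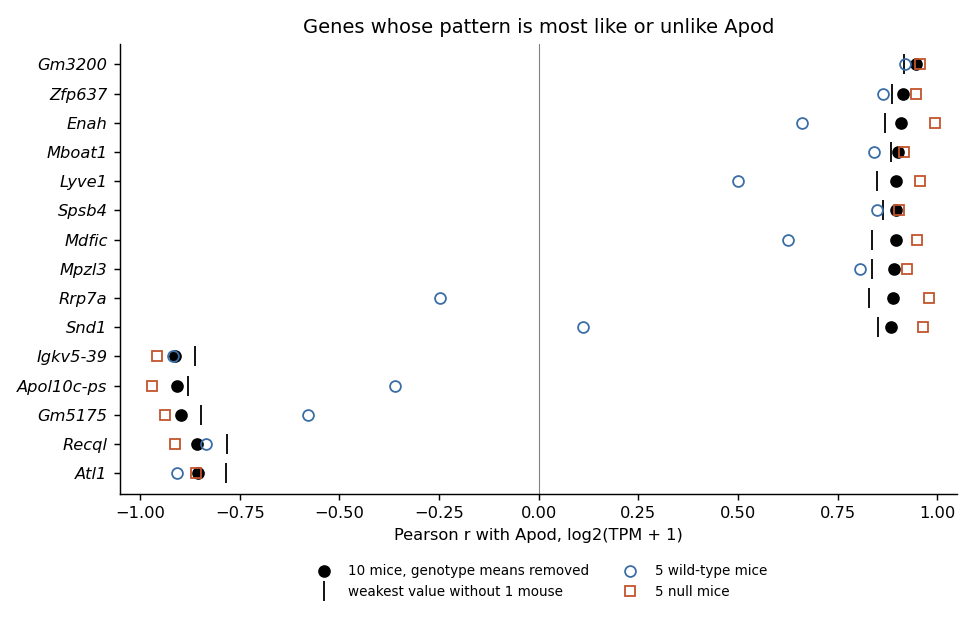
Pearson's r with Apod, on log2(TPM + 1), of the 10 genes most like it and the 5 most unlike it. Filled points use 10 mice with genotype means removed, ticks the weakest value when 1 mouse is left out, open circles the 5 wild-type and open squares the 5 null mice. The null mice give values near 1 for most of the 10, while those of the wild-type mice reach down to -0.25 for Rrp7a.

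With the genotype difference left in, the 5 highest were Lpcat3 at 0.93, Slc11a2 at 0.90, Tmem86b at 0.89, and Ypel4 and Adgrg1 at 0.88. These values include the difference by which Apod was chosen. With genotype means removed, the same 5 genes stood at 0.58, 0.58, 0.66, 0.54 and 0.39. None of them was among the 10 above.

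Each of the other carriers had its own followers. The 3 genes most like Apoe were the chemokine Cxcl10 (r = 0.96), Atp8b1 (0.93) and Havcr1 (0.93). For Apoc1 they were the chemokine receptor Cxcr6 (0.92), the pseudogene Trmt112-ps2 (0.92) and Yy2 (0.91), all 10 mice with genotype means removed. Clu was followed by the ephrin ligand Efna1 (0.99), Meltf (0.99) and Lgr6 (0.98), and without wild-type replicate 1 these were 0.97, 0.95 and 0.95. Rbp4 was followed by the ribosomal protein genes Rps14 (0.97) and Rps27 (0.96) and by Gpld1 (0.96). Rps14 averaged 1462 ± 196 TPM in the wild-type group and 1214 ± 97.2 in the null group. Ribosomal protein genes have many processed copies in the genome, which makes their own values uncertain.

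With genotype means removed, Apod varied with many of the marker lists over the 10 mice. Its deviations in log2(TPM + 1) ran from -0.12 to 0.24 in wild-type mice and from -0.37 to 0.40 in null mice. The null mice therefore weigh more in the values below, and r with the lists was not computed for each genotype alone. The mean log2(TPM + 1) of 10 fibroblast markers had an r of 0.69 with Apod over 10 mice with genotype means removed, and 0.91 without wild-type replicate 1, the mouse with many fibroblast transcripts and little Apod. The corresponding values were 0.79 and 0.88 for endothelial markers, 0.70 and 0.87 for smooth muscle and pericyte markers, and 0.58 and 0.95 for tendon and ligament markers. Lists of other kinds stood as high. The values were 0.73 and 0.73 for skeletal muscle and 0.70 and 0.81 for liver markers, 2 genes each, 0.61 and 0.74 for fat cell and 0.57 and 0.82 for osteoblast and osteocyte markers, and 0.49 and 0.90 for the retinoid list. They were 0.63 and 0.72 for osteoclast and 0.61 and 0.74 for synovial lining markers. For chondrocyte markers, the cell type in the labels, they were 0.32 and 0.69, and for nerve and Schwann cell markers 0.22 and 0.65. Both values were low for marrow stromal cell markers (0.28 and 0.24) and B lineage markers (0.23 and 0.23). So they were for macrophage markers (0.16 and 0.051), neutrophil markers (0.19 and 0.16) and erythroid markers (-0.21 and -0.42). Null replicates 2 and 3 and wild-type replicate 4 were high for their genotype in Apod and in fibroblast markers.

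The fibroblast markers themselves were as follows between genotypes. All 10 passed the filter, and 7 had a change above 0 and 3 below. Of the 10, 1 had an unadjusted p under 0.05, in the higher direction, beside 4.28% of all genes. The median change was 0.52, beside -0.045 over all genes tested. With a filter at 5 TPM, 8 markers were tested, 0 had such a p, and the median change was 0.15. With single mice left out, between 0 (wild-type replicate 2 or 5) and 3 (wild-type replicate 1 or 4 or null replicate 4) had such a p, and without null replicate 3 it was 2, both lower. The gene with all mice, Col14a1, measured 2.88, 2.01, 2.38, 5.28 and 1.40 TPM in wild-type mice 1 to 5 and 3.27, 5.89, 9.20, 4.86 and 3.59 TPM in null mice 1 to 5. The summed list ranged from 610 to 2218 TPM in wild-type and from 584 to 1488 TPM in null mice, so that the genotypes overlapped widely. Its mean was lower in null mice, at 1059 TPM against 1233 TPM in wild-type mice. Dpt, a matrix protein of fibroblasts, measured 11.8, 3.70, 1.997, 16.3 and 0.576 TPM in wild-type and 9.24, 16.1, 26.6, 8.62 and 2.98 TPM in null mice. Null replicates 2 and 3 and wild-type replicates 1 and 4 had the most, and the genotypes overlapped. The part of these cells in the Apod difference was not tested.

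Clu varied with cartilage genes and with other lists of skeletal and connective tissue. Its r with the mean of 6 chondrocyte markers was 0.94, and 0.88 without wild-type replicate 1. Of these 6 markers, 5 had an unadjusted p under 0.05 in the lower direction in null mice, beside 7.3% of all genes, and 2 without wild-type replicate 4 or null replicate 1 and 3 without null replicate 5. The values of r were 0.83 and 0.81 with osteoblast and osteocyte markers, 0.79 and 0.81 with fibroblast markers, 0.74 and 0.87 with synovial lining markers and 0.82 and 0.65 with tendon and ligament markers, over all mice and without wild-type replicate 1. With nerve and Schwann cell markers, of which 5 of 10 averaged under 1 TPM, it was 0.96 and 0.85. With macrophage markers it was -0.78 and -0.55. Rbp4 had an r of -0.73 with neutrophil markers, and -0.81 without wild-type replicate 1, while its 0.61 with chondrocyte markers was 0.29 without that mouse. Apoe, a gene of macrophages as well as of connective tissue, had an r of 0.24 with macrophage markers, and -0.039 without wild-type replicate 1. With the other targets of the liver X receptors it was 0.56, and 0.735 without that mouse. The part of these cell types in the values of the carriers was not tested.

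**Figure D5:**
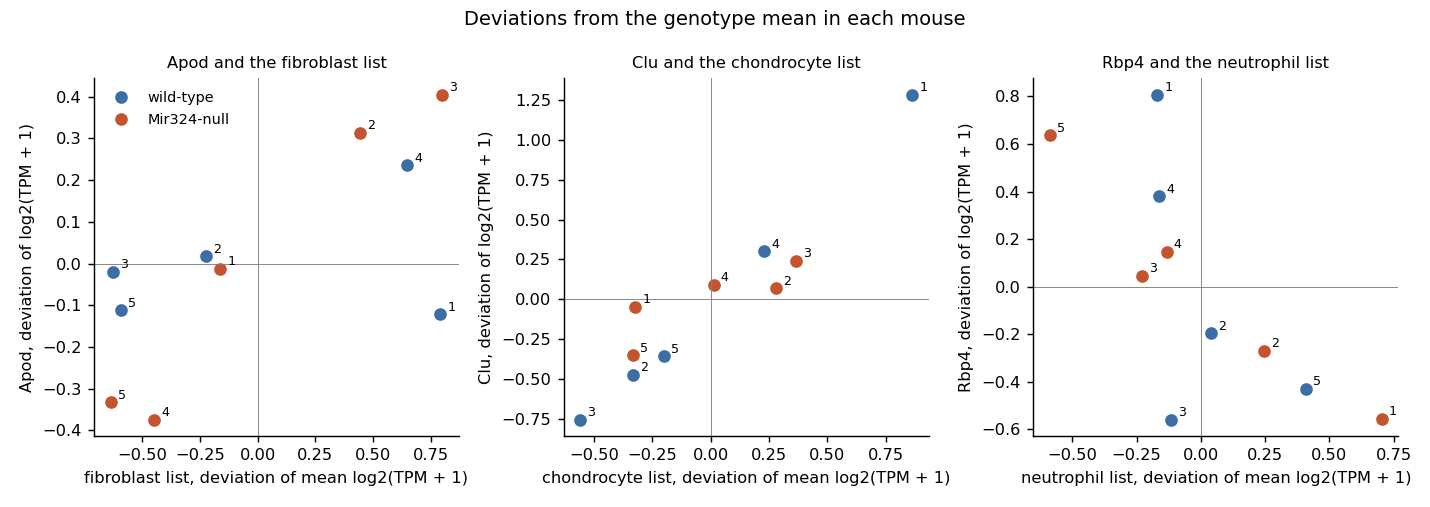
Deviation of a carrier's log2(TPM + 1) from its genotype mean (vertical) against that of the mean of a marker list (horizontal), 1 point per mouse, numbered by replicate and coloured by genotype. Wild-type replicate 1 lies off the trend of the other 9 mice for Apod and at the far end of the trend for Clu.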

How the data were processed

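RNA was sequenced from knee cartilage of 10 mice, 5 per genotype. The authors deposited TPM values for 116912 mouse transcripts. The submitters' processing notes name kallisto and DESeq2, with no version or role, and the build GRCh38, a human build, so the index used for these mouse transcripts is not known. Identifiers were matched without version to GENCODE M21 (GRCm38), which gave symbols and coordinates for 115440. The 1472 others (0.275% to 0.356% of a library) were left out. TPM values were summed per gene, and the 13841 of 35705 genes that reached a mean of 1 TPM were tested on log2(TPM + 1), a scale that understates changes of low genes. TPM carries no read counts, so depth is unknown and no count model was used. Each library is forced to 1000000 TPM, so abundant transcripts lower all others. There were 0 columns of other samples.

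Genotypes were compared with limma 3.58.1 in R 4.3.3 (trend on mean expression, all 10 mice, no covariate, two-sided, Benjamini-Hochberg adjustment over all genes tested, threshold 0.05). The step was tested on simulated data. Likeness was Pearson's r with genotype means removed, computed with Python 3.11.15 (pandas 2.3.3, numpy 2.4.6, scipy 1.17.1). Plots were made in matplotlib 3.10.9. Beside the 6 carriers, the text names list genes with an unadjusted p under 0.05 (at most 4 in each direction per list), the 10 genes with the highest and 5 with the lowest r with Apod, the 5 with the highest r before genotype means were removed, and 3 genes for each other carrier. Other genes of the lists (such as Apoc2, Lcn2, Lrp1, Bsg, Abca1, Hpgds, Dpt) were chosen for what they encode, after values were seen. Some list genes entered the counts and are not reported here. Members and lists were chosen with earlier results of these data known. The p-values set the difference between genotypes against the spread between mice, taken as independent. Nothing in the labels says that mice came from separate litters, so that independence could not be checked. Alternatives were another pseudocount (0.1), filters (none, or 5 TPM), scalings, no trend, the replicate number as a block, the most abundant transcript, an exact permutation test, Spearman's rho and leaving out each mouse.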

Additional observations from a re-analysis of the deposited data

Results flagged for a closer look

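In 40 genes named for the report, each genotype's 5 mice were examined for a value far from the rest, which gave 80 groups. In 1 of them a mouse stood apart. Zfp637, a zinc finger gene that ranked second among the genes most like Apod, was 18.1 TPM in wild-type replicate 4, against 15.9 to 16.5 TPM in the other 4 wild-type mice. The gap to the nearest mouse was 0.716 of the range of the group on the log2 scale, above the limit of 0.71. Chance alone gives about 1 such flag in 20 groups, so 1 flag in 80 groups was fewer than that. Wild-type replicate 4 was also the wild-type mouse with the most Apod, at 5.67 TPM. Zfp637 was chosen for its r with Apod over these mice, so nothing is read from that.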

How the results depend on the processing

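Of the 4 carriers tested (Apoe, Apoc1, Clu and Rbp4), none changed direction or passed adjustment under the alternatives run. Apod, with no test, kept its direction. The log2 change of Apod lay between 0.93 (most abundant transcript) and 1.20. That of Apoe lay between -0.26 and -0.042, of Apoc1 between -0.41 and -0.038, of Clu between -0.57 and -0.059, and of Rbp4 between -0.78 and -0.42 (limma, adjusted p between 0.272 and 0.712). Ptgds passed only when no filter was set, with a change of -0.070. No gene of the whole table passed adjustment in limma, with 1603 at an unadjusted p under 0.05 (1109 to 2062 over the alternatives). Leaving out 1 mouse gave between 0 and 1 gene called, with 1 called without wild-type replicate 3, wild-type replicate 4 or null replicate 1.

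Of the 10 genes most like Apod, 4 stayed with no filter, 6 with a filter at 5 TPM, 5 after median ratio scaling, 3 after quantile normalization, 6 without haemoglobin genes and 3 by Spearman's rho. Leaving out single mice, between 0 (wild-type replicate 1) and 6 (null replicate 2) stayed. The lists were also counted without each mouse in turn, an alternative added once the data had been seen. Apart from Apod, the genes at an unadjusted p under 0.05 then numbered between 1 and 2 for apolipoproteins, 0 and 1 for lipocalins, 4 and 5 for receptors and lipases, 3 and 6 for intracellular carriers, 0 and 3 for prostaglandins and 0 and 4 for retinoids. With the replicate number as a block, 0 genes were called and Rbp4 had an unadjusted limma p of 0.0757 (adjusted 0.625). Mice of the same number did not deviate together (r between -0.14 and 0.056), so the numbers were not taken as pairs. An exact permutation test gave two-sided p = 0.254 for Apoe, 0.222 for Apoc1, 0.437 for Clu and 0.103 for Rbp4.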
